A study of Mus musculus with 8 samples.

Results

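The mitochondrial carrier family was examined by RNA-seq in the white quadriceps of fasted mice lacking Acot2 in muscle. Members were taken by name, as every gene called Slc25a followed by a number, except Slc25a20, plus the uncoupling proteins Ucp1, Ucp2 and Ucp3. The rule found 49 genes among the 54091 rows of the table, and the rule itself uses no measured value. Of these, 40 reached a mean of 10 normalized counts over the 8 libraries and were tested, 7 had reads but fell short of that mean, and 2 had no read in any library.

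The knockouts, numbered 5 to 8, are labelled as carrying Cre driven by the muscle creatine kinase (CKM) promoter, with Acot2 knocked out in muscle. That promoter is active in muscle fibres, so vessels, nerve, fat and blood cells in the same tissue piece are outside the deletion. The floxed controls, numbered 1 to 4, are labelled Loxp/Loxp with no Cre named. All 8 mice were males of 11 to 14 weeks that had been fasted for 14 h, with 4 mice in each group. Animals with Cre and no floxed allele were not analysed here, so Cre itself and loss of Acot2 cannot be told apart. Acot2 encodes a thioesterase of the mitochondrial matrix that releases coenzyme A from long-chain acyl-CoA.

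Carriers of this family are small proteins of the inner membrane that move nucleotides, phosphate, organic acids, amino acids and cofactors between cytosol and matrix. In muscle the adenine nucleotide carrier brings ADP to the ATP synthase and takes ATP out, the phosphate carrier supplies the phosphate, and the malate-aspartate shuttle passes reducing equivalents from glycolysis inward. Uncoupling proteins are relatives of these carriers, and the best known of them, in brown fat, lets protons back into the matrix so that heat is released in place of ATP. Ucp3 is the form typical of skeletal muscle, where fasting is known to raise its transcript.

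The 250 bases before the RefSeq transcription start (GRCm38.p6) are shown for the 4 most abundant carriers per transcript length, since they lead the family in level. Capitals mark matches to the motifs searched on both strands, CCAAT (the CCAAT box), AGGTCA (a nuclear receptor element) and the palindromic site of nuclear respiratory factor 1. The Slc25a4 window lies at chr8:46211063-46211312 on the minus strand, that of Slc25a3 at chr10:91123968-91124217 on the minus strand, that of Ucp3 at chr7:100472741-100472990 on the plus strand, and that of Slc25a11 at chr11:70647040-70647289 on the minus strand.
Slc25a4: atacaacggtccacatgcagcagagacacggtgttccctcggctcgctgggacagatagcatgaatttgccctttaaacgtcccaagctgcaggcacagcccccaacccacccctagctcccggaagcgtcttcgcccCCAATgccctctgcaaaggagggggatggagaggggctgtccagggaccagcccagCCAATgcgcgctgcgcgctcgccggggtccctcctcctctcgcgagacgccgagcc
Slc25a3: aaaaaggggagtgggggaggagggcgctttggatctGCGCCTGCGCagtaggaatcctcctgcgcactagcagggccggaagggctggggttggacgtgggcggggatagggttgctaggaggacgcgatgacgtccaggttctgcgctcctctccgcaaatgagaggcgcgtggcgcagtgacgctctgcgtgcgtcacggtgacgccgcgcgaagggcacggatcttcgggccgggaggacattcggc
Ucp3: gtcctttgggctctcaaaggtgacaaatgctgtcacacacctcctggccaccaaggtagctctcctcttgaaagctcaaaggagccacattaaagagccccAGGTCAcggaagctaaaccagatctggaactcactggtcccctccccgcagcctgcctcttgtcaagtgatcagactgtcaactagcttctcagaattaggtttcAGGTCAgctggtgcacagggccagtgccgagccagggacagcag
Slc25a11: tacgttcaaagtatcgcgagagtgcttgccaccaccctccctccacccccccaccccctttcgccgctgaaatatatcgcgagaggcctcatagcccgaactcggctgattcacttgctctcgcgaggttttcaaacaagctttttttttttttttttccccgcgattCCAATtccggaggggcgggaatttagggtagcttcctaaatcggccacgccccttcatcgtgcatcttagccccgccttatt
Slc25a4 held 2 CCAAT boxes, Slc25a11 held 1, Slc25a3 held 1 nuclear respiratory factor 1 site, and Ucp3 held 2 nuclear receptor elements. By the GENCODE gene positions given below, the Slc25a11 window lay wholly inside its gene. The Slc25a4 and Slc25a3 windows lay partly inside theirs. The CCAAT boxes of Slc25a4 and Slc25a11 therefore fell inside the gene by GENCODE, while the Slc25a3 site fell before it. RefSeq windows of this length were matched for 38 members, with 48 windows among them, and for all genes together there were 32851. CCAAT occurred in 43.8% of the members' windows and 33.8% of all windows, and AGGTCA in 12.5% of the members' windows and 14% of all. The nuclear respiratory factor 1 site occurred in 4.17% of the members' windows and 3.74% of all, and the E-box CACGTG in 16.7% of the members' windows and 6.02% of all. TNAAGGTCA, the core bound by estrogen-related receptors, was in none of the members' 48 windows and in 1.14% of all. The AGGTCA matches include any that lie inside that longer core. These matches are letters in a window and carry no measurement of binding.

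Reads on genes ranged from 28659632 to 40977866 per library, and values below are normalized counts, which are reads divided by 1 size factor per library. A difference is knockout minus floxed control on the scale of log2(normalized count + 1), given with its standard error (SE) from limma, and a higher or lower mean refers to that log2 scale. Acot2 itself had 413, 312, 600 and 543 normalized counts in knockouts 5 to 8, against 1675, 3927, 2492 and 1530 in floxed controls 1 to 4. The difference was -2.30 (SE 0.287), with a limma adjusted p of 0.087 over all genes. Permuting the genotypes over the 8 mice gave an exact two-sided p of 0.0286, which is as low as 4 against 4 mice can go. Reads of Acot2 can be shared with Acot1, a gene beside it that is nearly identical. Myh4, the myosin of fast glycolytic fibres, had 1397870 to 2597333 normalized counts in knockouts and 2093810 to 2917699 in floxed controls, so the marker of white muscle was present in every library.

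The family's transcript was dominated by few genes. Its summed normalized count was 0.422 ± 0.0727% of a knockout library and 0.340 ± 0.0440% of a floxed control library (SD, n = 4 each). By mouse the share was 0.314, 0.454, 0.471 and 0.449% in knockouts 5 to 8, against 0.345, 0.368, 0.370 and 0.276% in floxed controls 1 to 4. Knockouts 6, 7 and 8 were above every floxed control and knockout 5 lay within the control range. Slc25a4 alone made up 56.5 ± 2.86% of the family's counts in knockouts and 53.8 ± 1.86% in floxed controls. The 5 members with the most counts together made up 87.4 ± 1.66% in knockouts and 85.8 ± 1.42% in floxed controls.

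Levels of different genes were compared per kilobase of the longest coding transcript. Slc25a4 had 42300 ± 8611 normalized counts per kb in knockouts and 33296 ± 4840 in floxed controls (SD, n = 4 each, as for the ± values that follow). The phosphate carrier Slc25a3 followed with 9784 ± 1590 in knockouts and 8330 ± 1215 in floxed controls, and Ucp3 with 4528 ± 695 in knockouts and 4148 ± 616 in floxed controls. Slc25a11, Slc25a12 and Slc25a5 came next, and the order of these 6 genes was the same in all 8 libraries. The closest neighbours among them were Slc25a11 and Slc25a12, whose ratio per kb was at least 1.195 in every library. At the other end, Slc25a35 had 8.35 ± 3.64 per kb in knockouts and 5.31 ± 1.62 in floxed controls, the lowest of the tested members.

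**Figure D1:**
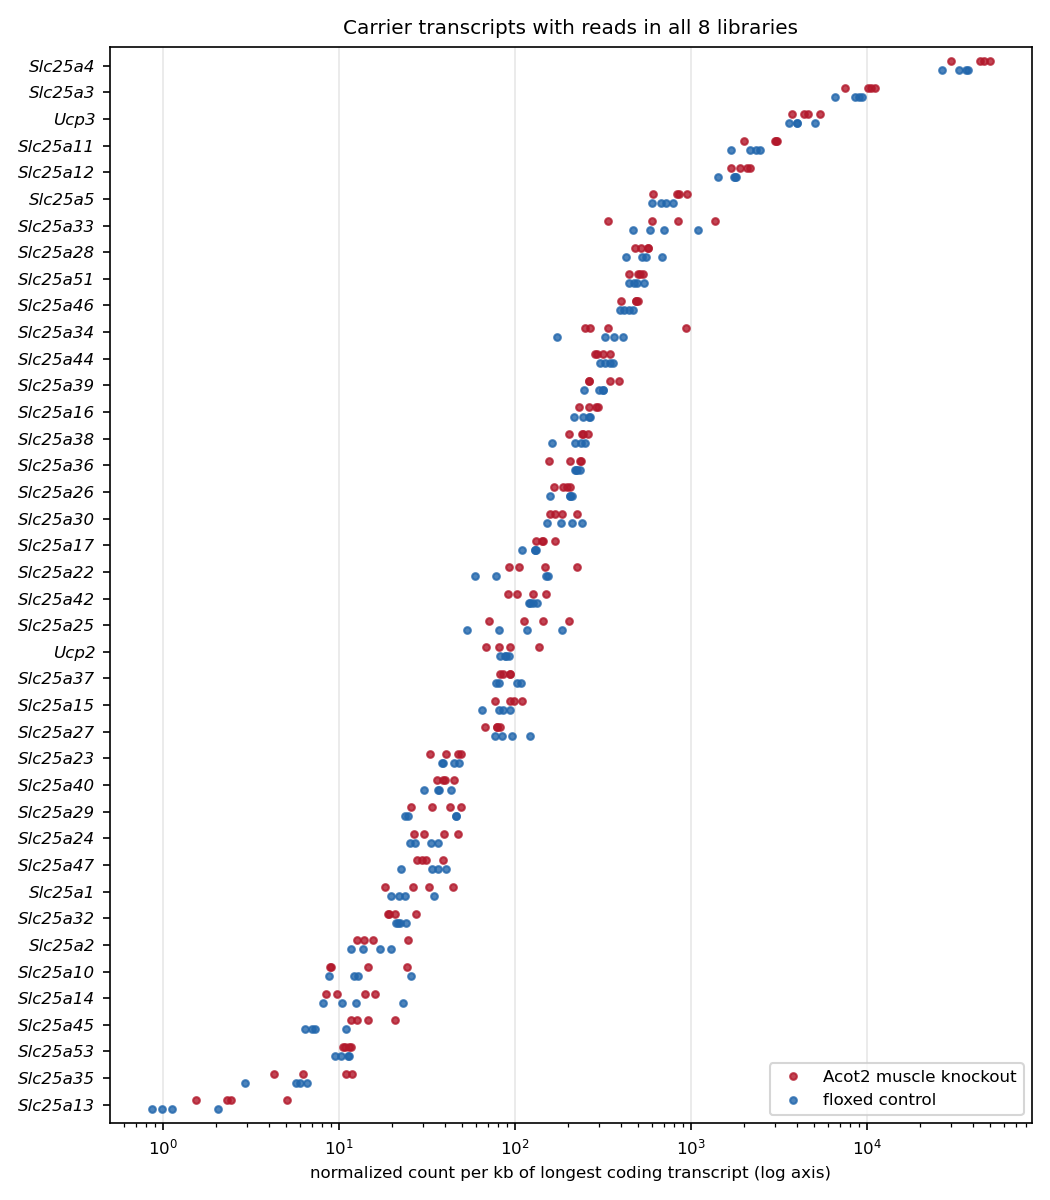
Normalized count per kilobase of the longest coding transcript (log axis) for members with reads in all 8 libraries, ordered by mean level. Each point is 1 mouse, with knockouts drawn above floxed controls. Slc25a4 stands alone at the top, and the groups overlap in all members shown but Slc25a45.

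Across the family no member passed the test. With limma, 0 of 40 tested members had an adjusted p under 0.05, and among all 13141 tested genes the share was 0%. The smallest adjusted p of any member was 0.746. The unadjusted p was under 0.05 in 2 members (5%), Slc25a45 and Slc25a11, both higher in knockouts, against 6.16% of all tested genes in either direction and 2.47% in that direction. The means were higher in knockouts for 27 members and lower for 13, which is 67.5% higher against 50.6% of all genes, and the median difference was 0.12 over the members and 0.0031 over all genes. At least 3 knockouts lay above every floxed control in 9 members (22.5%), against 10.7% of all genes. The groups did not overlap in 1 member, Slc25a45, against 2.75% of all genes. Knockouts varied more than floxed controls on the log2 scale in 23 of the 40 members (57.5%), and in 63.9% of all genes.

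These counts moved with single mice. The median difference of the members was 0.056 without floxed control 4 and 0.068 without knockout 7, against 0.12 with all 8 mice, and it was 0.16 without floxed control 1. Without knockout 5, 9 members had an unadjusted p under 0.05, while the share among all genes was then 16.7%, and the smallest adjusted p of a member was 0.103, for Slc25a11. Leaving out floxed control 2 gave 3 members under that unadjusted p, and leaving out knockout 6, 7 or 8 or floxed control 1 gave 1 each. Floxed control 4 was the lowest of the 8 libraries in 19 of the 40 tested members, and knockout 5 in 0 of them, although knockout 5 was the lowest knockout in 14.

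**Figure D2:**
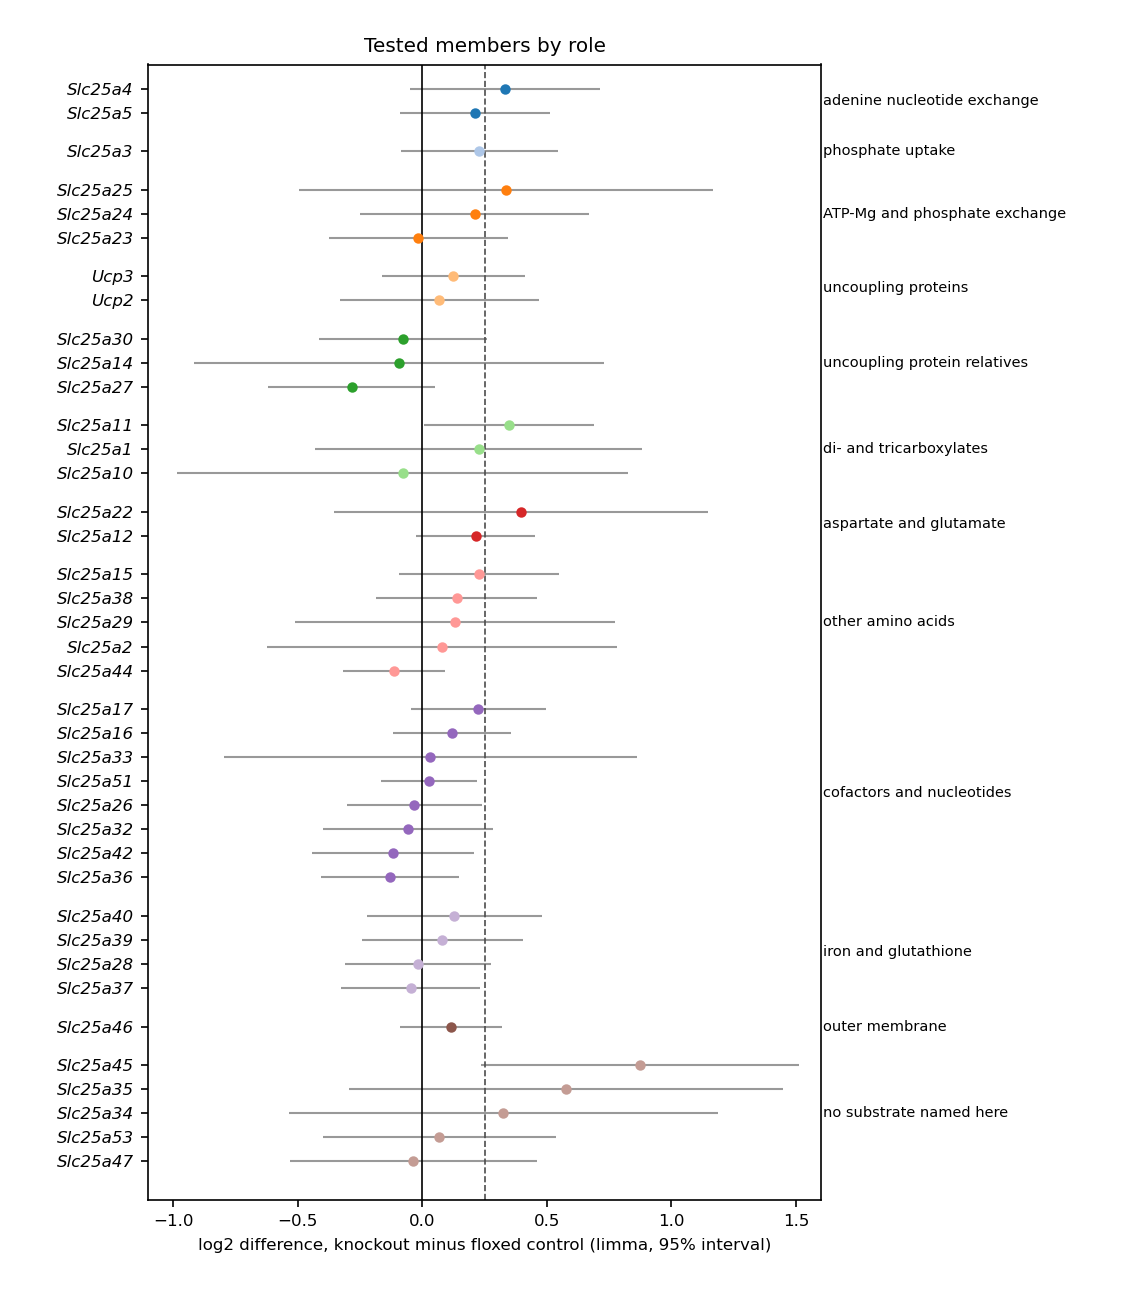
Log2 difference, knockout minus floxed control, for 39 tested members grouped by role, with the 95% interval of the limma fit (4 mice per group). The solid line marks 0 and the dashed line the median difference of 76 oxidative phosphorylation genes, 0.25. Intervals of all members shown but Slc25a45 and Slc25a11 include 0.

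Adenine nucleotide and phosphate carriers serve the ATP synthase together. Slc25a4, the adenine nucleotide carrier of heart and muscle (chromosome 8, 46206797 to 46211284, minus strand, GRCm38), had 57592, 95743, 84454 and 87919 normalized counts in knockouts 5 to 8, against 64004, 71496, 69894 and 50981 in floxed controls 1 to 4. Knockouts 6, 7 and 8 were above all floxed controls, and knockout 5 lay between floxed control 4 and the other controls. The difference was 0.33 (SE 0.173), with a limma adjusted p of 0.746, the value shared by the members with the smallest p. Slc25a5, the form of most dividing cells (X chromosome, plus strand), had 755, 1166, 1035 and 1063 in knockouts, against 889, 837, 975 and 742 in floxed controls. Here too knockouts 6 to 8 were above every control and knockout 5 was not, with a difference of 0.21 (SE 0.137). Slc25a4 exceeded Slc25a5 per kb by 52.0 ± 1.93 times in knockouts and 48.0 ± 4.80 times in floxed controls. An Slc25a5 pseudogene has its own row in the table, so reads could be split with it. Slc25a31, a form of the testis, had no read in any library.

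Slc25a3 carries phosphate, and copper, into the matrix (chromosome 10, 91116574 to 91124059, minus strand). It had 12044, 16854, 16337 and 17851 normalized counts in knockouts 5 to 8, against 13653, 15076, 14361 and 10621 in floxed controls 1 to 4. The order of mice was close to that of Slc25a4, with knockouts 6 to 8 above every control and floxed control 4 lowest, and the difference was 0.23 (SE 0.143). The ATP-Mg carriers, which exchange ATP-Mg for phosphate and so set the size of the matrix nucleotide pool, did not share that order. Slc25a25 had 399, 716, 251 and 505 in knockouts, against 285, 651, 187 and 412 in floxed controls, a 2.85-fold range within knockouts and a 3.49-fold range within floxed controls. Its difference of 0.33 (SE 0.377) was smaller than that spread. Slc25a24 differed by 0.21 (SE 0.209) and Slc25a23 by -0.015 (SE 0.162), and Slc25a41 had 2 reads over all knockouts and 1 over all floxed controls.

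Of the uncoupling proteins, Ucp3 was the third most abundant member per kb and Ucp1 was close to absent. Ucp3 (chromosome 7, 100472990 to 100486432, plus strand) had 9101, 11263, 10747 and 13232 normalized counts in knockouts 5 to 8, against 9734, 12321, 8827 and 9732 in floxed controls 1 to 4. Only knockout 8 exceeded every floxed control, and floxed control 2 exceeded the other 3 knockouts. The difference was 0.13 (SE 0.13), with a 95% interval from -0.16 to 0.41, and did not pass the test.

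Ucp2, the form found in immune cells and many other tissues, had 322, 545, 274 and 372 normalized counts in knockouts, against 327, 348, 352 and 368 in floxed controls. The 4 controls lay within a 1.13-fold range, while knockouts 6 and 8 were above all of them and knockouts 5 and 7 below all of them, with a difference of 0.068 (SE 0.181). The same knockouts had 2123, 2723, 2042 and 1705 summed normalized counts of 7 macrophage and leukocyte markers, against 1013, 1866, 1672 and 1646 in floxed controls. All 7 of these markers had higher means in knockouts, 3 of them at an unadjusted limma p under 0.05 and 0 at an adjusted p under 0.05. Knockout 6 was highest for both Ucp2 and the marker sum. Knockouts 5 and 7 were above every control for the marker sum but below every control for Ucp2. The part of these cells in Ucp2 was not tested. The 6 endothelial markers summed to 9230, 7741, 7935 and 7961 in knockouts, against 6645, 7066, 7618 and 7001 in floxed controls, and 5 of them had higher means in knockouts, 4 at an unadjusted limma p under 0.05 and 0 at an adjusted p under 0.05. In bulk tissue, more cells of a type and more RNA per cell cannot be told apart. Ucp3 exceeded Ucp2 per kb by 50.4 ± 13.4 times in knockouts and 47.5 ± 7.50 times in floxed controls. Ucp2 shares 305 exonic bases with Dnajb13 on the opposite strand, and the strand setting of the counting is not given in the sources used here.

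Ucp1, the uncoupling protein of brown and beige fat, had 2 reads in knockout 7 and 0 in every other library. The 5 brown adipocyte markers summed to between 74.1 and 214 normalized counts in knockouts, highest in knockout 7, and between 84.4 and 150 in floxed controls, with Elovl3 at 0 in every library. The 3 relatives of the uncoupling proteins all had lower means in knockouts, and none passed the test. Slc25a27, a brain form also known as UCP4, had 238, 195, 227 and 228 in knockouts, against 353, 277, 243 and 222 in floxed controls. Floxed controls 1, 2 and 3 were above all knockouts and floxed control 4 lay within the knockout range, and the difference was -0.28 (SE 0.152). Slc25a30 differed by -0.077 (SE 0.153) and Slc25a14 by -0.093 (SE 0.374).

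**Figure D3:**
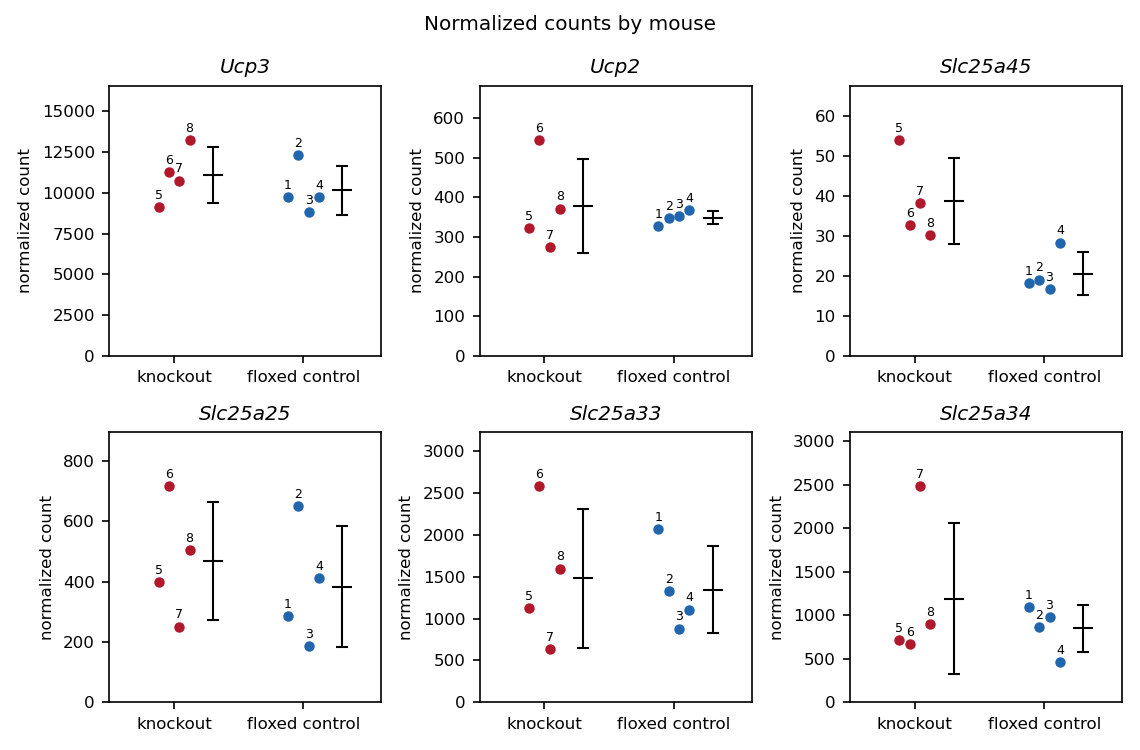
Normalized counts of 6 members by mouse, knockouts to the left of floxed controls, with bars for the mean ± SD of 4 mice. Ucp3 and Ucp2 overlap between groups, Slc25a45 does not, and Slc25a25, Slc25a33 and Slc25a34 vary several-fold within a group.

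The carriers of the malate-aspartate shuttle were among the most abundant members. Slc25a11, which swaps malate for 2-oxoglutarate (chromosome 11, 70644196 to 70647479, minus strand), had 3429, 5265, 5178 and 5090 normalized counts in knockouts 5 to 8, against 3684, 4219, 4015 and 2895 in floxed controls 1 to 4. Knockouts 6 to 8 lay close together above all controls, and knockout 5 was above floxed control 4 only. The difference was 0.35 (SE 0.155), with an unadjusted limma p of 0.0461 and an adjusted p of 0.746. Slc25a11 shares 189 exonic bases with Rnf167 on the opposite strand, a gene with a mean of 733 normalized counts.

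Slc25a12, the aspartate and glutamate carrier of muscle and brain (chromosome 2, 71271063 to 71367749, minus strand), had 10649, 13136, 12004 and 13763 in knockouts, against 11391, 11272, 11084 and 8970 in floxed controls. Again knockouts 6 to 8 were above every control and knockout 5 was below 3 of them, with a difference of 0.21 (SE 0.109). Slc25a13, the liver form of the same carrier, was below the filter, with 8, 7, 17 and 4 reads in knockouts, against 6, 4, 3 and 3 reads in floxed controls. Its sum was 36 reads in knockouts and 16 in floxed controls, knockout 7 held 17 of the 36, and knockout 8 lay within the control range. Per kb, Slc25a12 exceeded Slc25a13 by 836 ± 425 times in knockouts and 1464 ± 401 times in floxed controls.

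Other carriers of organic acids and amino acids were lower in level. The citrate carrier Slc25a1 had 30.3 to 73.5 normalized counts in knockouts and 33.1 to 57.8 in floxed controls, with a difference of 0.23 (SE 0.298). The dicarboxylate carrier Slc25a10, abundant in fat and liver, had 18.0, 29.4, 49.3 and 18.2 in knockouts, against 24.7, 26.1, 52.1 and 17.8 in floxed controls. Knockout 7 and floxed control 3 were the highest of their groups. Summed counts of 6 adipocyte markers were 1468, 673, 1859 and 539 in knockouts, against 219, 919, 2138 and 911 in floxed controls, also highest in knockout 7 and floxed control 3. Of the 5 of them that were tested, 3 had higher and 2 lower means in knockouts, and Lep was at 0 in some libraries of both groups. Knockout 5 was the next highest knockout for the marker sum but the lowest knockout for Slc25a10. The part of fat in the Slc25a10 values was not tested, and its difference was -0.079 (SE 0.41). Slc25a21, an oxodicarboxylate carrier, had 4 reads in knockout 7 and 0 elsewhere.

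The glutamate carrier Slc25a22 had 261, 294, 632 and 413 normalized counts in knockouts, against 419, 220, 430 and 167 in floxed controls, with a difference of 0.40 (SE 0.341). Its ranges were 2.43-fold within knockouts and 2.57-fold within floxed controls, wider than the difference. Slc25a18, another glutamate carrier, had 3 reads over all knockouts and 9 over all floxed controls. Slc25a15, which carries ornithine, had 265, 322, 339 and 375 in knockouts, against 278, 291, 320 and 223 in floxed controls. Knockouts 6, 7 and 8 were above all controls, floxed control 4 was lowest, and the difference was 0.23 (SE 0.145). Of the remaining amino acid carriers, Slc25a38 (glycine for haem synthesis) differed by 0.14 (SE 0.146), Slc25a29 (basic amino acids) by 0.13 (SE 0.292), and Slc25a2 (ornithine) by 0.078 (SE 0.319). Slc25a44, which brings branched-chain amino acids into mitochondria, differed by -0.11 (SE 0.0926), with 1014 to 1233 normalized counts in knockouts and 1083 to 1294 in floxed controls.

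Carriers of cofactors and nucleotides divided into 5 with higher and 4 with lower means, with a median difference of 0.029. Slc25a17, a peroxisomal carrier of coenzyme A and other nucleotides, had 248, 246, 290 and 226 normalized counts in knockouts 5 to 8, against 224, 189, 227 and 223 in floxed controls 1 to 4. All knockouts but knockout 8 were above every control, and knockout 8 was just below floxed control 3, with a difference of 0.22 (SE 0.123).

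The coenzyme A carrier Slc25a42 had 292 to 478 normalized counts in knockouts and 383 to 426 in floxed controls, and its difference was -0.12 (SE 0.147). Slc25a16, linked to coenzyme A transport, differed by 0.12 (SE 0.107). Slc25a51, which imports NAD, had 1973 to 2347 in knockouts and 1971 to 2398 in floxed controls, a difference of 0.029 (SE 0.0878). The methyl donor carrier Slc25a26 differed by -0.032 (SE 0.123), and it shares 144 exonic bases with the abundant Lrig1 on the opposite strand. The folate carrier Slc25a32 differed by -0.057 (SE 0.155). The pyrimidine nucleotide carriers Slc25a33 and Slc25a36 varied in different ways. Slc25a33 ran from 633 in knockout 7 to 2574 in knockout 6 and from 878 in floxed control 3 to 2066 in floxed control 1, with a difference of 0.033 (SE 0.376). Slc25a36 ran from 810 to 1241 in knockouts but only from 1149 to 1216 in floxed controls, with a difference of -0.13 (SE 0.126).

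The iron and glutathione carriers differed by less than their spread between mice. Slc25a37, mitoferrin 1, which supplies iron to developing red cells, had 390, 389, 358 and 341 normalized counts in knockouts, against 340, 426, 448 and 324 in floxed controls, a difference of -0.047 (SE 0.127). Summed counts of 5 erythroid markers were 1899, 3178, 2939 and 3118 in knockouts, against 1679, 2589, 5357 and 1120 in floxed controls, and all 5 had higher log2 means in knockouts, 0 of them at an unadjusted p under 0.05. Among the controls, floxed control 3 was highest and floxed control 4 lowest for both, while the knockouts showed no shared order, and the part of blood cells was not tested. Slc25a28, mitoferrin 2, had 740 to 875 in knockouts and 656 to 1052 in floxed controls, a difference of -0.017 (SE 0.133). The glutathione carriers Slc25a39 and Slc25a40 differed by 0.081 (SE 0.147) and 0.13 (SE 0.159). Slc25a46, a family member of the outer membrane with a part in mitochondrial shape, had 1754, 2133, 2179 and 2124 in knockouts, against 2050, 1816, 1940 and 1732 in floxed controls. Knockouts 6 to 8 were again above every control, by a small margin, with a difference of 0.12 (SE 0.0931).

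**Figure D4:**
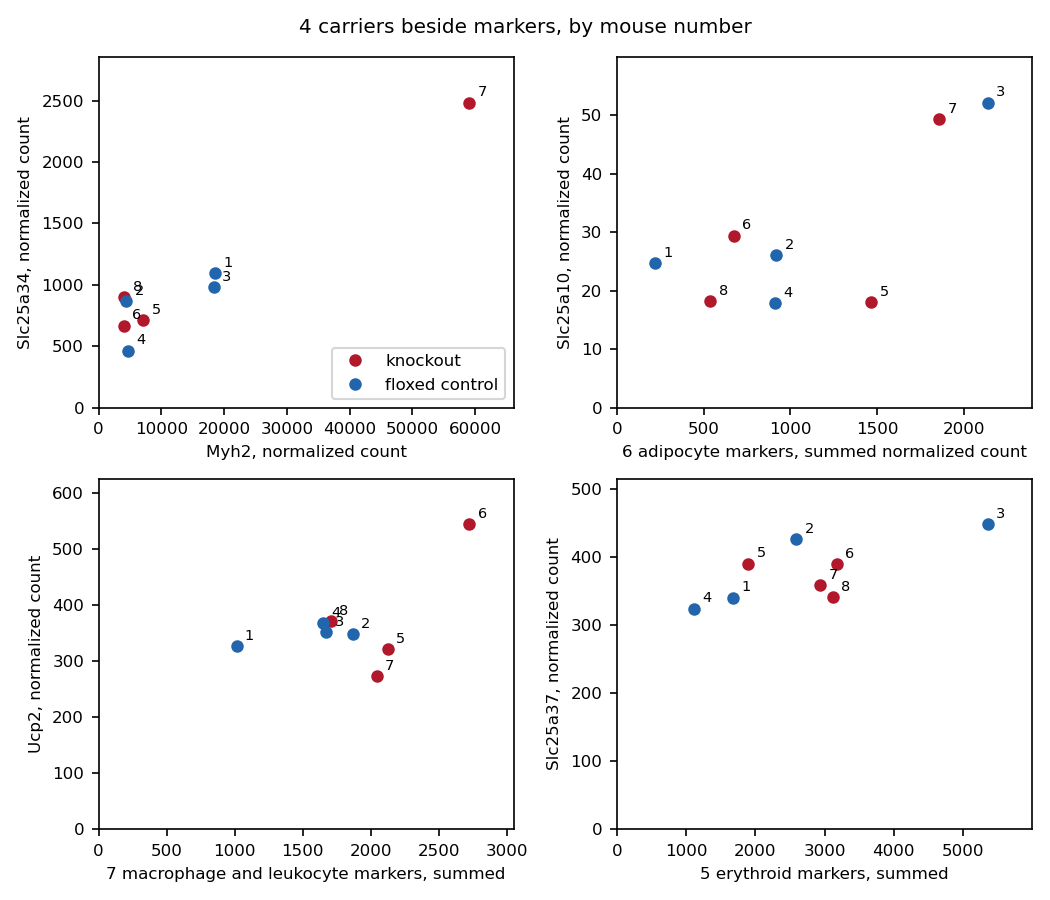
Normalized counts of Slc25a34, Slc25a10, Ucp2 and Slc25a37 (vertical axes) against summed normalized counts of markers (horizontal axes), with 1 point per mouse labelled by its replicate number. The pairs were chosen after their values were seen. Knockout 7 is highest for Slc25a34 and Myh2, floxed control 3 for Slc25a10 and adipocyte markers and for Slc25a37 and erythroid markers, and knockout 6 for Ucp2 and macrophage markers. Knockouts 5 and 7 lie above every floxed control for macrophage markers and below every one for Ucp2.

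Members for which no substrate is named here held the widest differences. Slc25a45 (chromosome 19, 5877808 to 5885878, plus strand) had 54.1, 32.7, 38.2 and 30.3 normalized counts in knockouts 5 to 8, against 18.2, 19.1, 16.7 and 28.4 in floxed controls 1 to 4. It was the member whose groups did not overlap, though knockout 8 and floxed control 4 lay close together. Behind these values stood 60, 30, 41 and 25 reads in knockouts, against 17, 22, 16 and 32 reads in floxed controls. The difference was 0.87 (SE 0.29), with a 95% interval from 0.23 to 1.51, an unadjusted limma p of 0.012 and an adjusted p of 0.746. Over the alternative settings it ran from 0.62 to 1.03, with adjusted p of at least 0.277. Slc25a45 was the only one of the members with at least 3 knockouts above every control in which knockout 5 was highest.

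Slc25a35 had 43.3, 22.9, 40.0 and 15.7 normalized counts in knockouts, against 10.7, 20.9, 21.9 and 24.0 in floxed controls, a difference of 0.58 (SE 0.395) with overlapping groups. It shares 1151 exonic bases with Rangrf on the opposite strand, which had a mean of 448 normalized counts, so its low count is uncertain. Slc25a34 had 714, 667, 2482 and 897 in knockouts, against 1095, 867, 978 and 464 in floxed controls. Knockout 7 was far above every other library, and the difference of 0.32 (SE 0.391) turned to -0.11 without it. Knockout 7 also had 59055 normalized counts of Myh2, the myosin of fast oxidative fibres, against 7087, 4005 and 4102 in the other knockouts and 18567, 4421, 18357 and 4678 in floxed controls 1 to 4. Slc25a22 was likewise highest in knockout 7, and floxed controls 1 and 3 were the higher controls for Myh2, Slc25a34 and Slc25a22. Summed counts of 6 slow fibre markers were 2144, 2425, 2297 and 1256 in knockouts, against 1873, 1215, 1650 and 1479 in floxed controls, and all 6 had higher log2 means in knockouts, 0 of them at an unadjusted p under 0.05. Atp2a2 made up most of each sum, with 1220 to 1805 in knockouts and 1167 to 1653 in floxed controls. Its difference was 0.13 (SE 0.137), while the median difference of the 6 was 1.22. The other slow markers had far fewer counts and varied widely between mice. The part of fibre type in these values was not tested.

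Slc25a47, a liver gene, differed by -0.036 (SE 0.225) and Slc25a53 by 0.069 (SE 0.213). Slc25a43 had 2, 1, 4 and 0 reads in knockouts and 0 in every floxed control, and Slc25a48 had 5, 1, 1 and 0 reads in knockouts, against 0, 0, 1 and 0 in floxed controls. Slc25a54 had no read.

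One order of mice recurred in several members. In 8 members exactly 3 knockouts lay above every floxed control, and in 7 of them, Slc25a4, Slc25a5, Slc25a3, Slc25a11, Slc25a12, Slc25a15 and Slc25a46, these were knockouts 6, 7 and 8, with floxed control 4 the lowest library. In Slc25a17 they were knockouts 5, 6 and 7. At least 3 knockouts lay above every floxed control in 22.5% of the members and 10.7% of all genes. How often the order of mice above occurred among all genes was not counted. The order was not shared by all abundant members, since Ucp3, Slc25a33, Slc25a28 and Slc25a51, which are among the 9 highest per kb, did not show it, while Slc25a15 is lower in level. The mean log2 value of 76 nuclear oxidative phosphorylation genes followed the same order, at 11.70, 12.18, 12.16 and 12.16 in knockouts 5 to 8, against 11.88, 11.90, 11.90 and 11.53 in floxed controls 1 to 4. Of those 76 genes, 74 had higher means in knockouts, with a median difference of 0.25. The share of reads on titin, one of the longest muscle transcripts, ran the other way in these mice, at 13.9, 8.67, 8.34 and 9.22% in knockouts and 12.8, 11.8, 12.2 and 14.9% in floxed controls. Knockout 5 and floxed control 4 were the highest of the 8 for titin and the lowest for oxidative phosphorylation genes, and what sets this order was not tested.

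**Figure D5:**
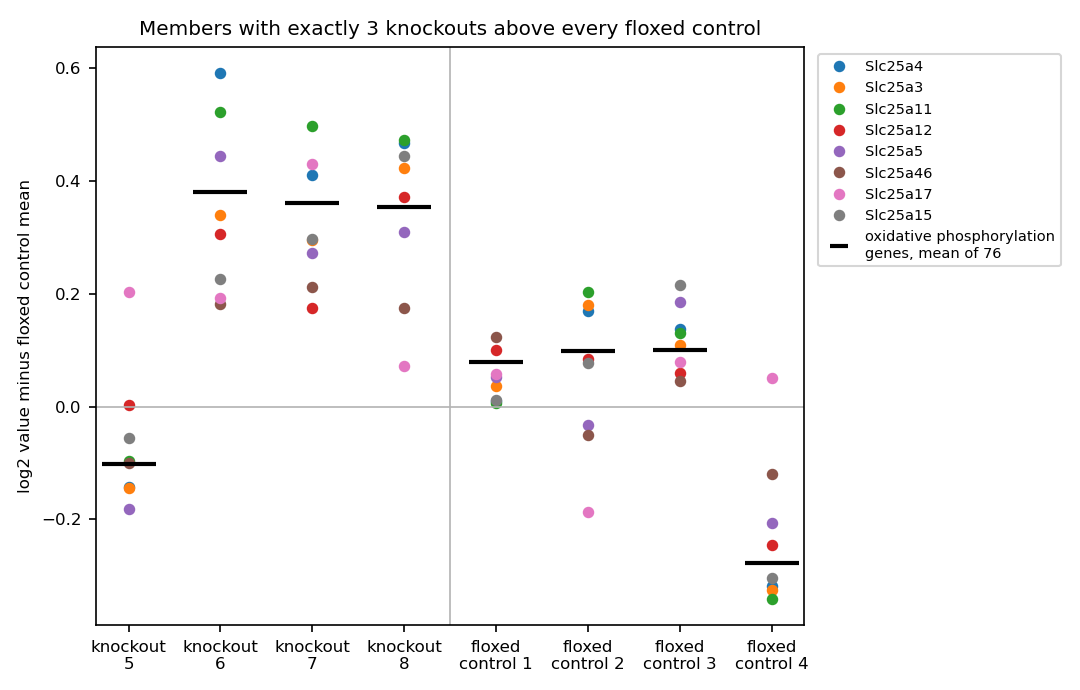
Log2 value of 8 members minus their floxed control mean, in each of the 4 knockouts and, to their right, the 4 floxed controls; coloured points are members and black bars the mean of 76 oxidative phosphorylation genes. Points of knockouts 6, 7 and 8 lie above 0, those of knockout 5 near or below 0 except Slc25a17, and those of floxed control 4 below 0 except Slc25a17.

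Scaling each library to its oxidative phosphorylation genes moves all genes down alike, to a median difference of -0.25 with 13.3% of all genes higher in knockouts. On that scale 8 of the 40 members had higher means in knockouts and the members' median was -0.13. Because every gene shifts alike, the distance between the members' median and that of all genes could not change. The sign of 19 members changed with the scale, among them Slc25a3, Slc25a5, Slc25a12, Slc25a15, Slc25a17, Slc25a46, Ucp2 and Ucp3. Slc25a4 remained higher at 0.083 and Slc25a11 at 0.10. Without knockout 5 the abundant members differed more, with 0.49 (SE 0.139) for Slc25a4, 0.50 (SE 0.12) for Slc25a11, 0.35 (SE 0.12) for Slc25a3 and 0.22 (SE 0.122) for Ucp3. Their limma adjusted p values were then 0.134, 0.103, 0.185 and 0.404, above the threshold.

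Other genes of mitochondrial membrane transport were counted by the same test. Of 26 tested, 17 had higher and 9 lower means in knockouts, and the median difference was 0.071. Of these 26, 0 had an adjusted limma p under 0.05 and 1 had an unadjusted p under 0.05. Among all tested genes 50.6% had higher means, with a median difference of 0.0031. The adjusted p was under 0.05 in 0% of all genes and the unadjusted p in 6.16%. The transport gene at an unadjusted p under 0.05 was Ckmt2. It encodes the mitochondrial creatine kinase that turns exported ATP into phosphocreatine beside the adenine nucleotide carrier. It had 19828, 39371, 42426 and 33944 normalized counts in knockouts 5 to 8, against 22221, 22541, 28092 and 13020 in floxed controls 1 to 4. Knockouts 6 to 8 were above every control and knockout 5 was above floxed control 4 alone, with a difference of 0.65 (SE 0.264) and a limma adjusted p of 0.746. Per kb, Slc25a4 exceeded Ckmt2 by 1.91 ± 0.294 times in knockouts and 2.40 ± 0.466 times in floxed controls. The next smallest p belonged to Mpc2, a subunit of the pyruvate carrier, with 3423, 5279, 4240 and 5033 in knockouts, against 4315, 3901, 3876 and 2829 in floxed controls. Its difference was 0.27 (SE 0.157), and knockouts 6 and 8 alone were above every control.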

How the data were processed

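RNA-seq was done on white quadriceps of 8 fasted male mice, and each library was assigned to a group by its genotype label. Per the labels' protocols, libraries came from a stranded TruSeq kit. STAR, HTSeq, cutadapt, FastQC and DESeq2 are named without versions in the submitters' processing notes, with the build GRCm38. Which annotation and strand setting they used is not stated there. The deposited values are log2(n + 1), where n is the read count over a size factor of the library, unscaled for length. The values show this themselves, since 100% of those up to 200 reads came out whole to within 0.1 read.

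Genes with a mean of at least 10 normalized counts were tested, 13141 in all, with limma 3.58.1 in R 4.3.3 (trend, Benjamini-Hochberg over all of them) and called at an adjusted p under 0.05. The pseudocount of 1 in the deposited log2 values understates differences of low genes. Libraries were taken as separate animals because their titles carry different mouse numbers, and no batch is labelled. Levels per kb used the longest coding transcript of GENCODE M21, adopted after the longest transcript of Slc25a3 proved to hold 2 exons only. Gene positions are GENCODE's, and motif windows are RefSeq's 250 bases before the start.

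The members, roles, transport list and markers were chosen with earlier results of these data known. Values in every library are given for the adenine nucleotide, phosphate, uncoupling and malate-aspartate carriers, the 5 highest per kb, the 10 with the smallest p and any with groups apart, except 1 member that is counted but not reported here. Other members with full values, and the members set beside markers, were picked after their values were seen. The model was tested on simulated data. Alternatives covered pseudocount, filter, 4 rescalings, robust and weighted fits, the mouse number range as covariate, voom on recovered reads and each mouse left out.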

Additional observations from a re-analysis of the deposited data

Results flagged for a closer look

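In each group of 4 mice, the highest or lowest value was compared with its nearest neighbour on the log2 scale. Of 80 groups examined over the 40 tested members, 5 had a mouse that stood apart, and chance marks about 1 in 20. Slc25a11 was low in knockout 5, at 3429 normalized counts, against 5090 to 5265 in the other knockouts. Slc25a46 was low in the same mouse, at 1754, against 2124 to 2179 in the other knockouts. Slc25a12 was low in floxed control 4, at 8970, against 11084 to 11391 in the other floxed controls. Slc25a26 was low in floxed control 2, at 303 (402 in the highest floxed control), and so was Slc25a17, at 189 (227 in the highest floxed control). All 5 were low values, 2 of them in knockout 5 and 2 in floxed control 2. The log2 scale widens gaps below a group and narrows those above it. On that scale the high Slc25a34 of knockout 7, at 2482 against 667 to 897 in the other knockouts, was not flagged.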

How the results depend on the processing

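No member passed an adjusted p of 0.05 in any alternative. The smallest adjusted p of a member was 0.103, without knockout 5, and the number at an unadjusted p under 0.05 ran from 0 (filter at a mean of 50) to 9 (without knockout 5). Leaving out 1 mouse at a time gave 23 (without floxed control 4) to 31 members with higher means and a median difference of 0.056 to 0.16, and Acot2 differed by -2.49 to -2.03. Rescaling to the same total gave 31 members higher, with the median of all genes at 0.044. Relative to the oxidative phosphorylation genes, 8 members were higher and the median was -0.13, with 13.3% of all genes higher and their median at -0.25, since the scale moves every gene alike. With no filter on low values Acot2 differed by the same -2.30, with a limma adjusted p of 0.0042, and no member was called among 47. With a robust fit the limma adjusted p of Acot2 was 0.758, and with the mouse number range as covariate 0.195. It was 0.1275 with array weights and 0.1155 with the filter at a mean of 50.

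In Slc25a35, Slc25a10, Slc25a14 and Slc25a2, tested members with few reads, standard errors ran from 0.319 to 0.41, against 0.173 for Slc25a4. Slc25a53, also with few reads, had 0.213, and Slc25a34, with a mean of 1020 normalized counts, had 0.391. No paired analysis was made. The column headers of the deposited values number the mice of each group anew, and no label states that mice with the same number are a pair.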
